A study of Mus musculus with 4 samples.

Results

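The 7 genes described here encode the Fos and Jun subunits of the transcription factor AP-1, namely *Fos*, *Fosb*, *Fosl1* and *Fosl2* of the Fos family and *Jun*, *Junb* and *Jund* of the Jun family. They were chosen by gene name on the array, and all their probes were taken, which gave 8 of the 39429 non-control probes and 7 of the 29676 gene names. Each gene had 1 probe apart from *Fosl2*, which had 2. The samples were astrocyte-enriched cultures (AECs), made by treating mixed glial cultures from the cortex of newborn ICR mice with pexidartinib, a Csf1r inhibitor that removes microglia. Both groups had this treatment, so none of the comparisons is free of it. The untreated group (2 cultures) was set against cultures deprived of oxygen and glucose (OGD) for 15 h (2 cultures), and each RNA was hybridized to its own array in a single color. According to the methods, wells were seeded from separate cultures of different pups. The study names oligodendrocytes and possibly NG2 glia as other cells in these cultures.

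AP-1 is a dimer whose subunits join through a leucine zipper and bind DNA through the basic region next to it. Jun proteins can pair with each other or with a Fos protein, whereas Fos proteins bind DNA in partnership with a Jun protein or another zipper protein. *Fos*, *Fosb*, *Jun* and *Junb* are classic immediate early genes, switched on within minutes by growth factors, calcium or stress and usually silenced soon after, whereas *Jund* is expressed steadily in most cells. In glia, AP-1 is known for its part in the response to injury and inflammatory signals.

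RefSeq start-site windows, each of 250 bases before and 50 bases after the gene's start, were given for 6 of the 7 genes, all but *Fosl1*. Those of *Fos*, *Fosb*, *Jun* and *Junb* are shown as those of the classic immediate early genes of the family. In capitals are the letters that a search of both strands found among the following: TGACTCA, the TPA response element (TRE) that AP-1 binds; TGACGTCA, the cAMP response element (CRE); the CArG box bound by Srf; ACGTG and also GCGTG, the core letters of hypoxia response elements; the TATA box as TATAAA; and the CRE part TGACG, added after the windows had been read.
*Fos* (GRCm38.p6, chr12:85473640-85473939, plus strand): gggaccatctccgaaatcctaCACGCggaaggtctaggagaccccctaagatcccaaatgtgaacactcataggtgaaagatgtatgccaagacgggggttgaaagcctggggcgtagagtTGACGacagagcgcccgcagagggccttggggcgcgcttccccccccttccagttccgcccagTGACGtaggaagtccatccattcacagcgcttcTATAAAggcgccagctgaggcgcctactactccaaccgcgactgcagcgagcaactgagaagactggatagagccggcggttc
*Fosb* (GRCm38.p6, chr7:19309996-19310295, minus strand): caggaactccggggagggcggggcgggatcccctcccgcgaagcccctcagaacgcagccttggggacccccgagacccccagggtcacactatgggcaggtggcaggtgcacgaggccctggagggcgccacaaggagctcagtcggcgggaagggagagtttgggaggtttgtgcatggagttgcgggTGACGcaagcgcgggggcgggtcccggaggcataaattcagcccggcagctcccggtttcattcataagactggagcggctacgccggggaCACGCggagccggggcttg
*Jun* (GRCm38.p6, chr4:95052173-95052472, minus strand): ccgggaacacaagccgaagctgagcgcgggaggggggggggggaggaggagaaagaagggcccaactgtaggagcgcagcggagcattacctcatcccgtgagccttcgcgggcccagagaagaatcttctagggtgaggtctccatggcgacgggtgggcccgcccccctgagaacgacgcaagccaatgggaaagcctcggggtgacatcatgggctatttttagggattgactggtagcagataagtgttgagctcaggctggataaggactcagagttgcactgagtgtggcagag
*Junb* (GRCm38.p6, chr8:84978699-84978998, minus strand): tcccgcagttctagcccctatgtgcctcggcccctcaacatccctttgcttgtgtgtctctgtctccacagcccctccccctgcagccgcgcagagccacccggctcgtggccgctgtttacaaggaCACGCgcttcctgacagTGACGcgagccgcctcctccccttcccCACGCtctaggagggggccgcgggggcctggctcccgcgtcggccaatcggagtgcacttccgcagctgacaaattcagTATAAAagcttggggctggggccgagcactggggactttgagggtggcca

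TGACG lay at 129 and 66 bases before the start in *Fos*, at 60 in *Fosb* and at 106 in *Junb*, and 20.8% of the 32851 windows in the table held it. TATAAA began 33 bases before the start in *Fos* and at the start itself in *Junb*, against 13.6% of all windows. GCGTG, found here as CACGC of the opposite strand, was in the windows of *Fos*, *Fosb* and *Junb* and in 32.4% of all windows. The windows of *Jun* and *Fosl2* held none of the letters searched, and that of *Jund* held ACGTG at 83 and 74 bases before the start (19.6% of all windows). TRE, CRE and CArG box letters were in none of the 6 windows, while 5.20%, 1.79% and 1.63% of all windows held them. These counts describe the letters of short windows and not binding.

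The arrays themselves set a limit on every direction given below. The 75th percentile of the processed signal, to which each array was scaled as in the methods, read 2135 and 2164 for untreated cultures but 887 and 776 for OGD cultures, a log2 difference of −1.37. The 9 spiked-in control probes well above background on every array differed by −0.085 on average, within −0.75 to 0.28. Scaling to them in place of the percentile moved the median log2 fold change of all 21063 genes tested from 0.16 to −1.13. The methods give the same mass of total RNA for every labeling, so neither scale is a level per cell. For a marker or AP-1 gene in such bulk RNA, fewer cells of a type and less RNA per cell cannot be told apart.

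On each array all 10 astrocyte markers were well above background. Their summed level was 16809% and 14864% of the 75th percentile in untreated cultures and 22768% and 23272% after OGD. By adjusted p in limma 6 of them were higher and 1 was lower, against 37.1% and 27.8% of all genes. *Gfap* was higher, at 0.72 on the log2 scale, and *Sox9* was the lower one, at −1.52. With spike-in scaling 0 of the 10 had a value above 0. Their median there was −0.62 against −1.13 over all genes, and *Gfap* was at −0.56. Summed over the 10 microglia markers the level was 536% and 497% of the 75th percentile in untreated cultures and 1178% and 1151% after OGD, with 9 and 10 of them above background in the first case and 9 and 7 in the second. The phagocyte marker *Cd68* went from 54.2% to 485% on the first arrays of the groups. *Csf1r* and *Aif1* were also higher, by 1.14 and 1.03 on the log2 scale, whereas *Tmem119* and *Trem2* were lower, at −0.88 and −0.93. For *Cx3cr1*, *P2ry12* and *Itgam* the change did not pass (−0.29, 0.18 and 0.023), and *Cx3cr1* was not above background on either OGD array. Over the 9 oligodendrocyte markers the sum was 2916% and 2936% against 2629% and 2547%. Among them *Olig2* fell by 2.50 on the log2 scale and *Mbp* rose by 1.19. With spike-in scaling *Csf1r*, *Aif1* and *Mbp* were at −0.15, −0.26 and −0.10, so these increases hold for the 75th percentile alone of the 2 scales. Over the 4 NG2 glia markers the sum was 166% and 161% against 133% and 129%. Summed levels were 3101% and 2897% against 3096% and 3412% for 7 neuron markers, and 1188% and 1008% against 1026% and 791% for the 4 of 5 meningeal fibroblast markers read on every array. Over 3 endothelial markers, of which 2 were above background, they were 14.0% and 13.3% against 17.3% and 14.6%. The part of these other cells in the AP-1 signal was not tested.

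Each of the 4 arrays detected all 8 AP-1 probes well above background, where 64.5% to 73.7% of all non-control spots were. For each probe the OGD values did not overlap the untreated values. With 2 arrays against 2 this says little, as the exact permutation p is 0.333, and the share of all probes was not counted. Relative to the 75th percentile, all 7 genes were higher after OGD at an adjusted p under 0.05 in limma. By the same rule 37.1% of all genes tested were higher. *Jund* and the brightest probe of *Fosl2* turned with spike-in scaling. By the brightest probe of each gene, the increase ranged from 36.4-fold for *Fosb* to 1.56-fold for *Jund*. In 5 genes (*Fosb*, *Fos*, *Fosl1*, *Junb* and *Jun*) it passed 2-fold, against 12.7% of all genes. In *Fosb* it also passed the 10-fold limit of the methods, against 0.707%. The other probe of *Fosl2*, at 61.5-fold, passed both limits too. By adjusted p 0 of the 7 were lower, against 27.8% of all genes, and 0 by unadjusted p under 0.05 in limma. With spike-in scaling the same 5 genes were still higher (3.84% of all genes) and the other two, *Fosl2* by its brightest probe and *Jund*, were lower (83.3% of all genes). On that scale *Fosb* rose 14.9-fold, *Fos* 3.92-fold, *Fosl1* 3.84-fold, *Junb* 2.84-fold and *Jun* 1.49-fold.

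**Figure D1:**
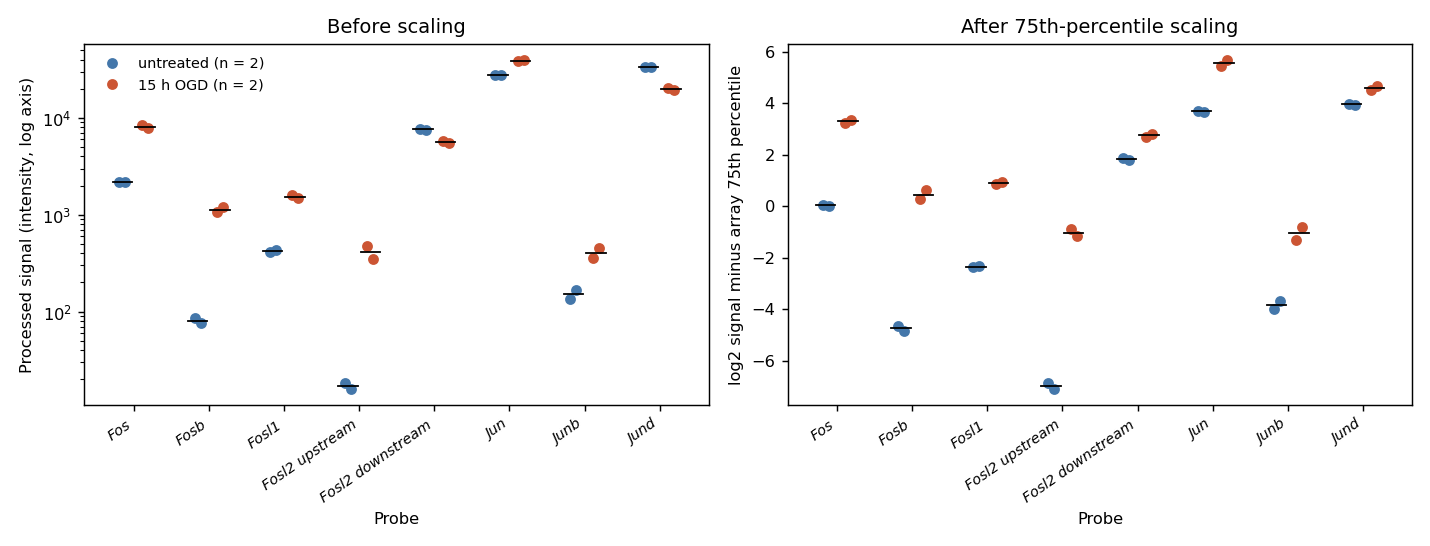
Signal of the 8 AP-1 probes on the 4 arrays, as the processed signal on a log axis (left) and as log2 signal minus each array's 75th percentile (right); points are arrays, 2 untreated and 2 after 15 h of OGD, and lines are group means. *Jund* and the downstream *Fosl2* probe lie lower after OGD on the left and higher on the right, and the other 6 probes lie higher in both.

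*Fos*, the founding member of the family, was read by probe A_52_P262219 (NM_010234), on chromosome 12 of mm9 from 86817900 to 86817959. The probe was printed 10 times on each array, which shows the error of a single spot. On the first OGD array 1 spot was marked as an outlier and 9 were used. Spots of this probe differed by a coefficient of variation between 4.72% and 7.30% within an array. The processed signal averaged 2195 and 2199 in untreated cultures, and 8340 and 7912 in those given OGD. Even the dimmest spot after OGD, at 6987, was brighter than the brightest untreated spot, at 2508. After scaling, *Fos* rose 9.58-fold (95% interval 8.11 to 11.3), which on the log2 scale is 3.26 ± 0.085 (SE, n = 2 per group, adjusted p = 0.000731 in limma).

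*Fosb*, whose product is also made as a shortened form that lasts longer in cells, was read by probe A_55_P2113051 (NM_008036) on chromosome 7 of mm9, from 19888168 to 19888227. Its signal was 85.3 and 76.0 in untreated cultures and 1077 and 1189 after OGD. This was the largest increase among the 7 genes by their brightest probes, at 5.19 on the log2 scale (SE 0.16, adjusted p = 0.000731 in limma). Only 0.138% of the genes tested rose more. Which form of the *Fosb* transcript the probe reads was not analysed here.

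*Fosl1*, known as a gene that AP-1 itself turns on, was read by probe A_51_P308796 (NM_010235, chromosome 19 of mm9, 5455496 to 5455555). Its signal was 413 and 437 before and 1592 and 1486 after OGD. The log2 fold change was 3.23 (SE 0.084, adjusted p = 0.000731 in limma), or 9.38-fold. It differed from that of *Fos* by 0.031, less than the SE of either.

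*Fosl2* gave different answers by its 2 probes, both assigned to NM_008037 and 4988 bases apart on chromosome 5 of mm9. Their sequences are shown as deposited, the first in full and the second by its first 30 bases.
*Fosl2* upstream probe A_51_P507242 (mm9, chr5:32455088-32455147): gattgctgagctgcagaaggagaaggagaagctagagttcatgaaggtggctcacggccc
*Fosl2* downstream probe A_55_P1995195 (mm9, chr5:32460076-32460135): gctatggaggaaagaacatattaaaaactt
The upstream probe, nearer the start of this plus-strand gene, had a signal of 18.5 and 16.0 in untreated cultures and 478 and 350 after OGD. The downstream probe, the brighter one, had a signal of 7707 and 7572 against 5757 and 5440. Thus the first was far higher after OGD before any scaling, and the second was lower.

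Relative to the 75th percentile, the upstream probe rose by 5.94 on the log2 scale (SE 0.14, 61.5-fold, adjusted p = 0.000731 in limma) and the downstream probe by 0.92 (SE 0.085, 1.90-fold, adjusted p = 0.00247 in limma). The difference between them, 5.02 on the log2 scale or 32.4-fold, is the same for any scaling of an array by a constant, and was 5.23 with quantile normalization. It passed the test of probes within a gene (diffSplice of limma, adjusted p = 1.06e-06 over 10987 probes of 4856 genes). By that test 52.9% of the genes had a probe that changed differently from the others, so passing it is common. The size is less so, since the median range between probes of a gene was 0.54 and that of *Fosl2* ranked 14 among the 4856. With normexp background correction, which raises the lowest signals, the difference was 3.09. Levels of the 2 probes were not set against each other, because brightness differs between probes for reasons other than the amount of RNA. Which exons or transcript ends they read was not analysed here.

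*Jun*, the first Jun protein described and a target of the stress kinase JNK, was read by probe A_55_P2158990 (NM_010591, chromosome 4 of mm9, 94716928 to 94716987). The signal was 27815 and 27371 in untreated cultures and 38633 and 39154 after OGD, so it was bright in both. Its log2 fold change was 1.87 (SE 0.11, adjusted p = 0.00112 in limma), or 3.65-fold, and 0.58 with spike-in scaling (adjusted p = 0.00635 in limma).

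*Junb*, which often restrains *Jun*, was read by probe A_55_P2011106 (NM_008416, chromosome 8 of mm9, 87501881 to 87501940). Its signal rose from 136 and 167 to 361 and 449, with the widest spread between replicates of the Jun genes (SD 0.20 in untreated cultures and 0.36 after OGD on the normalized log2 scale, n = 2 each). The log2 fold change was 2.79 (SE 0.22, adjusted p = 0.00184 in limma), or 6.93-fold.

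*Jund*, the most steadily expressed of the family, was read by probe A_51_P357744 (NM_010592, chromosome 8 of mm9, 73224436 to 73224495). The processed signal was 33097 and 33324 in untreated cultures and 20448 and 19607 after OGD, lower on both OGD arrays. Because the 75th percentile was lower by more, the scaled values went the other way, with a log2 fold change of 0.64 (SE 0.088, adjusted p = 0.00595 in limma). With quantile normalization, *Jund* was the only AP-1 gene without a called increase, at −0.014 (adjusted p = 0.908 in limma), and with spike-in scaling it was at −0.65 (adjusted p = 0.00333 in limma). Thus the direction given for *Jund* holds for some scalings and not for others.

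**Figure D2:**
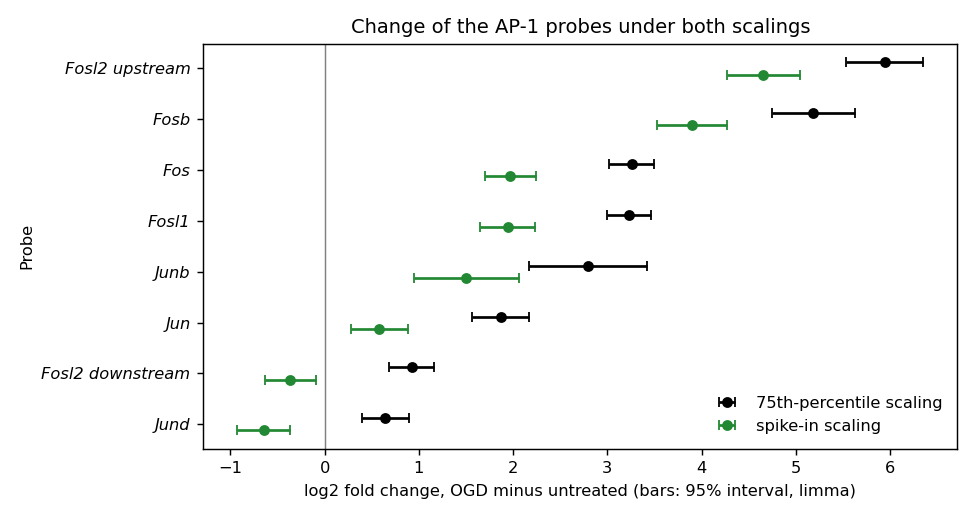
Log2 fold change (OGD minus untreated) of the 8 AP-1 probes with 95% intervals from limma, with each array scaled to its 75th percentile (black) and to the spiked-in control probes (green). Spike-in scaling moves every probe to the left by the same amount, which takes *Jund* and the downstream *Fosl2* probe below 0 and leaves the order unchanged.

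Scaling each array by a constant cannot alter the order of the changes. By the brightest probe of each gene it ran from *Fosb* (5.19) through *Fos* (3.26), *Fosl1* (3.23), *Junb* (2.79), *Jun* (1.87) and *Fosl2* (0.92) to *Jund* (0.64). The 95% interval of *Fosb* (4.74 to 5.63) lay clear of those of all other brightest probes, but overlapped that of the upstream *Fosl2* probe (5.53 to 6.35). Those of *Fos*, *Fosl1* and *Junb* overlapped, as did *Junb* and *Jun*, and *Fosl2* and *Jund*. *Jun* (1.57 to 2.17) lay clear of *Fosl2* (0.68 to 1.17). Within the Jun family, *Junb* changed 4.44-fold more than *Jund*, and within the Fos family *Fosb* changed 19.2-fold more than *Fosl2* by its brightest probe. If the upstream probe stood for *Fosl2*, that gene would come first at 5.94, but with normexp that probe was at 4.06, below *Fosb* at 4.40. With 2 arrays against 2, the two-sided exact permutation p of each probe was 0.333, and no smaller value is possible.

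Over all 4 arrays, the genes nearest to each member were found by the Euclidean distance between log2 values centered on each probe's mean, among 15878 other genes well above background throughout. *Hmox1*, heme oxygenase, was among the nearest to *Fos* (distance 0.070), and *Ppp1r15a*, a phosphatase subunit of the stress response, among the nearest to *Fosl1* (0.049). The cytokine *Il6* was nearest to *Fosb* (0.17), followed by *Ankrd33b* (0.29). *Mras* (0.046) and *Ptx3* (0.053) were nearest to *Jun*, *Gm10375* (0.088) and *4930557B15Rik* (0.10) to *Junb*, *Enho* (0.011) and *Rhpn2* (0.020) to *Fosl2* and *Qdpr* (0.013) and *Fkbp1b* (0.014) to *Jund*. With 4 arrays in 2 groups, this measure finds little more than genes with a similar change.

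Other zipper proteins can take the place of a Fos or Jun protein in the dimer. Of 16 such partners tested, 5 were higher and 1 lower after OGD with a fold over 2, against 12.7% and 15% of all genes, and their median log2 fold change was 0.29 against 0.16 over all genes. *Atf3*, a stress-induced partner of Jun proteins, had the largest increase, from a signal of 1601 and 1676 to 8648 and 8326 (log2 fold change 3.75, SE 0.090, adjusted p = 0.000731 in limma). *Maff* and *Mafk*, small Maf proteins that lack an activation domain, rose by 3.12 and 3.11. These 3 genes kept their direction with spike-in scaling, at 2.46, 1.83 and 1.82.

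Among 34 kinases and factors that act on Fos and Jun genes or proteins, 5 were higher and 5 lower with a fold over 2, close to the 12.7% and 15% of all genes, and the median was −0.026 against 0.16 over all genes. *Mapk8*, which encodes the kinase JNK1, rose by 2.49 (SE 0.17, adjusted p = 0.00146 in limma) with the brightest of its 3 probes and by 0.063 with the one that changed least. The other JNK genes, *Mapk9* and *Mapk10*, were lower, at −0.42 (adjusted p = 0.0292 in limma) and −0.33 (adjusted p = 0.0231 in limma), values named here beside *Mapk8* after they had been seen. *Creb1*, a factor that binds the CRE, changed by 1.23 with its brighter probe and by −1.26 with the other, and by −0.054 with spike-in scaling. The kinase gene *Map2k3* changed by 1.22 and spread widely after OGD (566 and 933, against 818 and 796 in untreated cultures), and with spike-in scaling its change was −0.066. The largest decreases were those of the kinase genes *Rps6ka1* (−2.24) and *Map2k6* (−1.78) and of *Mrtfb* (−1.83), a coactivator of Srf, which had another probe at 1.03. *Mapk8*, *Creb1* and *Mrtfb*, the only ones with several probes among the 6 genes named by the rule, thus all had probes whose values differed.

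Of 11 genes for RNA-binding proteins and ubiquitin ligase parts known to limit or stabilize AP-1 transcripts and proteins, 2 were higher and 1 was lower with a fold over 2, counts near the 12.7% and 15% of all genes, and their median was 0.37 against 0.16 over all genes. *Fbxw7*, the substrate-binding part of a ubiquitin ligase that marks Jun for destruction, fell from 2380 and 2371 to 310 and 277, a log2 fold change of −1.64 (SE 0.075, adjusted p = 0.000860 in limma) and −2.93 with spike-in scaling. *Hnrnpd*, which binds AU-rich transcripts, was at 1.23 and *Trib1* at 1.05, and with spike-in scaling neither passed, at −0.062 (adjusted p = 0.611 in limma) and −0.24 (adjusted p = 0.218 in limma). The 3 probes of *Trib1* ranged from 1.01 to 6.25.

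Genes that AP-1 is known to activate formed the list with the most increases of the 4. Of 35 such genes 32 were tested, and 20 were higher and 0 lower with a fold over 2, against 12.7% and 15% of all genes. Their median log2 fold change was 1.46. Without a limit on fold, 27 were higher and 0 lower by adjusted p, against 37.1% and 27.8% of all genes, and 1 was lower by unadjusted p under 0.05. *Il11* led with a signal of 628 and 815 against 11912 and 11254 (log2 fold change 5.39, SE 0.15, adjusted p = 0.000731 in limma). It was followed by *Il6* at 5.02 and *Ptgs2*, the inducible cyclooxygenase, at 4.77, and with spike-in scaling these were 4.10, 3.73 and 3.48. On that scale 11 of the list were higher and 4 lower with a fold over 2, against 2.01% and 55.7% of all genes, with a median of 0.18 against −1.13. Many of these genes also answer to factors other than AP-1, and AP-1 binding was not measured. The list was chosen with earlier results of these data known. *Vegfa*, *Areg* and *Ptgs2* are also among the increased genes that the study itself reports from these arrays. The counts of this list are thus a description and not a test.

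**Figure D3:**
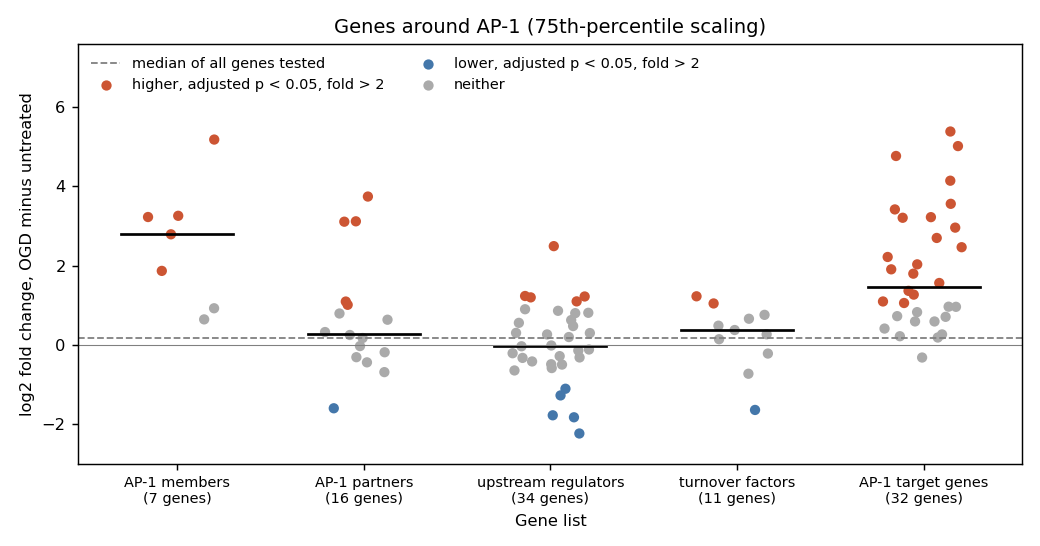
Log2 fold change (OGD minus untreated, 75th-percentile scaling) of each tested gene of the AP-1 family and of 4 lists around it; points are genes by their brightest probe, black lines are list medians and the dashed line is the median of all genes. The AP-1 members (median 2.79) and the target genes (median 1.46) lie mostly above the dashed line, whereas the upstream regulators spread to both sides of it; with spike-in scaling *Fosl2* and *Jund* lie below 0.

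**Figure D4:**
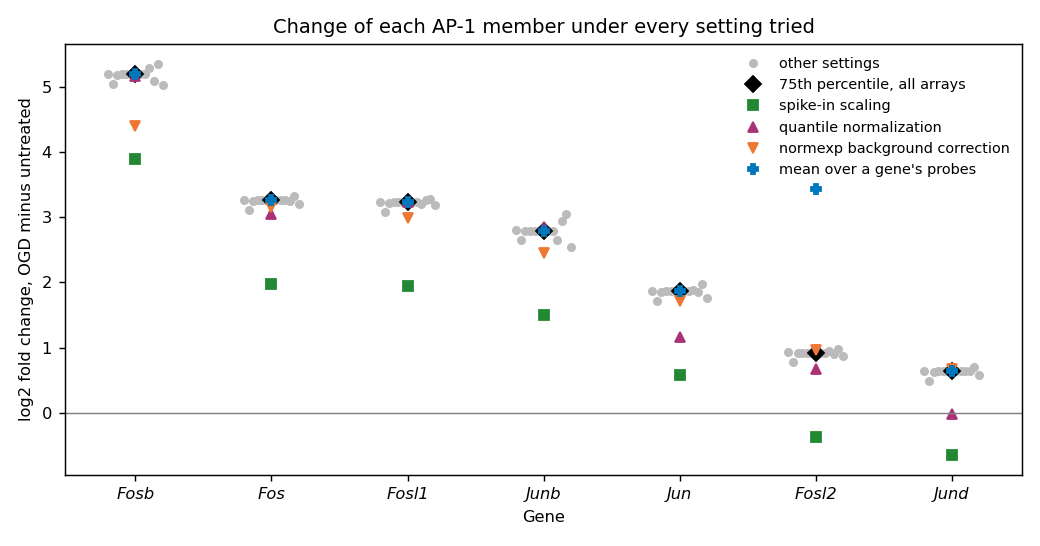
Log2 fold change (OGD minus untreated) of each AP-1 gene under the reported setting (black) and all alternatives tried (other symbols, grey for those not named). *Fosb*, *Fos*, *Fosl1*, *Junb* and *Jun* stay above 0 throughout, *Fosl2* spans −0.36 to 3.43, and *Jund* lies between −0.65 and 0.71.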

How the data were processed

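Total RNA of 4 cultures was labeled with Cy3 and read on Agilent mouse arrays. The authors deposited 1 scanner file per array with the processed signal of Feature Extraction (11.5.1.1 in the submitters' processing notes), an intensity from which background was subtracted within the array, not normalized between arrays. The deposited table of the series holds the same intensity (largest relative difference 0). Probe positions are on mm9, and all arrays lay on the same slide and scan.

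Control and outlier spots were left out, log2 values were averaged per probe, and each array's 75th percentile was subtracted. A probe was tested if at least 1 group had it well above background on both of its arrays (share of spots at least 0.5), and these 28258 probes were fitted with limma 3.58.1 in R 4.3.3 (Benjamini–Hochberg over all of them). The brightest probe stood for a gene. Probes of 1 gene were compared with diffSplice. Figures and letter counts were made with Python 3.11.15. The steps were tested on simulated data. Precision is limited by 2 arrays per group.

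The AP-1 genes and the gene lists were chosen with earlier results of these data known. Named genes were all members, up to 3 increases and 3 decreases per list called with a fold over 2, and the 2 genes nearest to each member. Some genes that this rule names are not reported here. The alternatives were other scalings, background correction, filters, tests, a replicate block, outlier spots kept, the series table, the mean over probes and each array left out.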

Additional observations from a re-analysis of the deposited data

How the results depend on the processing

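*Fos*, *Fosb*, *Fosl1*, *Junb* and *Jun* kept their direction in all 17 alternatives, and an adjusted p under 0.05 in those with all 4 arrays. The series table, filters, other tests, replicate block and, with 1 probe per gene, mean over probes leave these fold changes as they were. Direction could thus turn only in the other settings. Each gene was lowest with spike-in scaling, where *Fosb* was at 3.90 and *Jun* at 0.58 on the log2 scale. With spike-in scaling *Fosl2* became −0.36 by its brightest probe, while its upstream probe was at 4.65. *Jund* became −0.65, and 2 members counted as lower. With quantile normalization *Jund* became −0.014. Without single arrays *Jund* lay between 0.58 and 0.71, and its adjusted p in limma rose to 0.0545 without the first untreated array and to 0.0583 without the second. With 1 array left in a group, that array is assumed to vary like those of the other group, so the 4 settings that leave out an array, counted among the 17 here and among the 8 for the *Fosl2* probes, say little about stability. With the mean over probes *Fosl2* was at 3.43. The replicate block left all fold changes as they were (*Fos* 3.26, *Jund* 0.64 with adjusted p = 0.0191 in limma), the *Fosl2* probe difference of 5.02 too, and changed no call. The numbers were not treated as pairs, since there are only 2 and deviations of same-numbered arrays correlated across probes at −0.057. The *Fosl2* probe difference passed in all 8 alternatives, from 3.09 to 5.23.

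Counts past a 2-fold change in the lists moved more. With spike-in scaling the counts higher and lower became 3 and 8 for partners, 1 and 20 for upstream regulators, 0 and 5 for turnover factors, and 11 and 4 for AP-1 target genes, where 2.01% and 55.7% of all genes were higher and lower. With a 75th percentile taken only over the probes that passed the background test, 3 partners, 3 upstream regulators and 1 turnover factor were higher. With normexp 0 partners were lower and 1 turnover factor was higher, with the methods' t-test 0 partners were lower and 3 upstream regulators and 1 turnover factor higher, with quantile normalization 0 turnover factors were higher, and with the mean over probes 2 upstream regulators were lower. Leaving out single arrays gave 1 to 2 partners lower, 3 to 5 upstream regulators higher and 1 to 2 turnover factors higher. Over all genes, 13659 passed the adjusted p, 5833 also 2-fold and 267 also 10-fold. The cause of these shifts was not tested.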
